A study of Homo sapiens with 6 samples.

Results

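Narrow isolated H3K27ac regions are the stretches of H3K27ac signal that were under 1000 bp wide and had no called H3K4me1 region overlapping them or within 2000 bp of either edge. In Calu-3, an established human lung adenocarcinoma line used as a model of airway epithelium, 8212 of the 34638 called H3K27ac regions met this rule, or 23.7%. They are a large class by number and a small one by signal, since they covered 5.15 Mb, or 7.93% of the bases called for the mark, and carried 4.26% of its summed score. They were chosen by their width and their distance to H3K4me1, both measured in these libraries, and those values are given as a description. What the rule did not use is the binding of EHF, and that is what was tested.

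The series consists of chromatin immunoprecipitation followed by sequencing (ChIP-seq) of 6 libraries from Calu-3 cells for which the labels name no treatment. EHF was profiled in 2 replicate libraries, H3K27ac in 1 and H3K4me1 in 1, beside 2 input libraries that served the authors' peak calling, 1 for both EHF lists and 1 for both marks. Nothing in the labels ties the EHF libraries to different cultures, and each mark has 1 library, so no statement about a mark has a replicate check. The libraries held 10176290 tags (EHF replicate 1), 8418631 tags (EHF replicate 2), 12989646 tags (H3K4me1) and 21426939 tags (H3K27ac). Positions are in the build hg19.

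H3K27ac, acetylation of lysine 27 of histone H3, is laid down by the acetyltransferases p300 and CBP and marks active enhancers and active promoters. H3K4me1, monomethylation of lysine 4, is found at enhancers and on the flanks of promoters, and is usually low at the centre of an active promoter. EHF (Ets homologous factor) belongs to the ETS transcription factors, is found mostly in epithelia and binds DNA through a GGAA core. An H3K27ac region without H3K4me1 can therefore lie at a promoter or elsewhere. Which gene or genomic feature lies at each region was not analysed here, because no annotation of hg19 was used.

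Narrow isolated regions lay at the lower limit of what the caller reports. The score of a region is the authors' tag count scaled to a library of 10000000 tags. The caller's threshold of 17 tags is 7.93 on this scale, and 109 narrow isolated regions, or 1.33%, had a lower score, down to 6, for a reason the files do not give. The lowest scores are therefore uncertain. The median score of the narrow isolated regions was 12 (quartiles 9 and 17), against 38 (15 and 88) over all H3K27ac regions. A score of 12 stands for about 26 tags, and the exact Poisson 95% interval of such a count is 16.98 to 38.1 tags, or 7.93 to 17.8 on the score's scale, which covers counting error only. In all, 3044 narrow isolated regions, or 37.1%, scored 10 or less, 422 scored 30 or more and 39 scored 50 or more. Widths were not spread evenly: 4235 of the regions, or 51.6%, were 501 bp wide, the narrowest width in the list, and the next width that occurred was 626 bp. Neither the low scores nor these widths were particular to isolated regions. Regions as narrow with H3K4me1 overlapping or within 2000 bp had a median score of 13 (quartiles 10 and 18), and 49.3% were 501 bp wide. Per the file headers, the authors called peaks of 500 bp and stitched them into regions.

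Per kilobase the mark was also thin. The median score per kb was 19.96 in the narrow isolated regions (quartiles 17.96 and 25.9). It was 20.9 (17.96 and 25.9) in the 5367 regions that were as narrow but had H3K4me1 overlapping or within 2000 bp, called narrow H3K4me1-near regions here. It was 31.9 (24.2 and 43.3) in the 9535 regions that were as isolated but 1000 bp or wider, called wide isolated regions here. The narrow classes thus had the same quartiles per kb and nearly the same median, and the wide isolated regions were denser. Regions just inside the width limit (292 regions of 950 to under 1000 bp) had a median of 24.1 per kb and those just outside it (255 isolated regions of 1000 to under 1050 bp) had 28.05. An EHF replicate 2 peak was met by 20 regions on each side of this limit, and a replicate 1 peak by 1 region inside it and 7 outside. Across the other limit, the 254 narrow regions with H3K4me1 beyond 2000 and up to 2500 bp and the 316 with H3K4me1 beyond 1500 and up to 2000 bp had medians of 19.96 and 20.01 per kb. Values per kb come from the same library as the rule and were not tested.

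EHF was called in few of the narrow isolated regions. A peak of EHF replicate 1 overlapped 56 of the 8212 regions, or 0.682% (exact 95% binomial interval 0.516% to 0.885%), against 2.65% of all H3K27ac regions. A peak of EHF replicate 2 overlapped 235, or 2.86% (2.51% to 3.25%), against 8.99% of all regions. A shared EHF site, meaning a replicate 1 peak that overlaps a replicate 2 peak, was found in 37, or 0.451% (0.317% to 0.621%), against 1.71% of all regions. No narrow isolated region held more than 1 peak of either replicate, but this was rare everywhere. Over all 34638 H3K27ac regions, 17 held 2 or more replicate 1 peaks and 191 held 2 or more replicate 2 peaks. In total 255 narrow isolated regions, or 3.11%, met a peak of at least 1 replicate and 7957 met none. Over all H3K27ac regions that share was not counted, but it is no lower than the 8.99% of replicate 2 alone. Replicate 2 had fewer tags than replicate 1 but a longer peak list (5216 and 1537 peaks), so the shares of the replicates are read separately.

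Narrow regions with and without H3K4me1 near did not differ detectably in this share, whereas narrow and wide isolated regions did. Against the narrow H3K4me1-near regions the EHF shares were 0.682% and 0.801% in replicate 1, 2.86% and 2.74% in replicate 2, and 0.451% and 0.354% for shared sites. The differences were -0.12 points (Newcombe 95% interval -0.44 to 0.17), 0.12 points (-0.46 to 0.68) and 0.10 points (-0.14 to 0.31). None passed the two-sided Fisher's exact test (adjusted p = 0.513, p = 0.71 and p = 0.498, Benjamini-Hochberg over 12 tests), and their signs changed with the settings. With the width limit at 1500 bp the replicate 1 difference was -0.33 points (0.91% and 1.24%, Fisher's exact test, adjusted p = 0.0499). Against the wide isolated regions the shares were 0.682% and 2.55% in replicate 1, 2.86% and 10.2% in replicate 2, and 0.451% and 1.73% for shared sites. These differences of -1.87 points (-2.24 to -1.51), -7.32 points (-8.03 to -6.62) and -1.28 points (-1.59 to -0.98) passed Fisher's exact test (adjusted p = 6.28e-23, p = 9.92e-89 and p = 2.49e-16). The share in narrow isolated regions was the lower one on 20, 23 and 21 of the 23 chromosomes with more than 1 region, for replicate 1, replicate 2 and shared sites in turn. The tests count regions of the same libraries, which are not replicates of the culture.

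**Figure D1:**
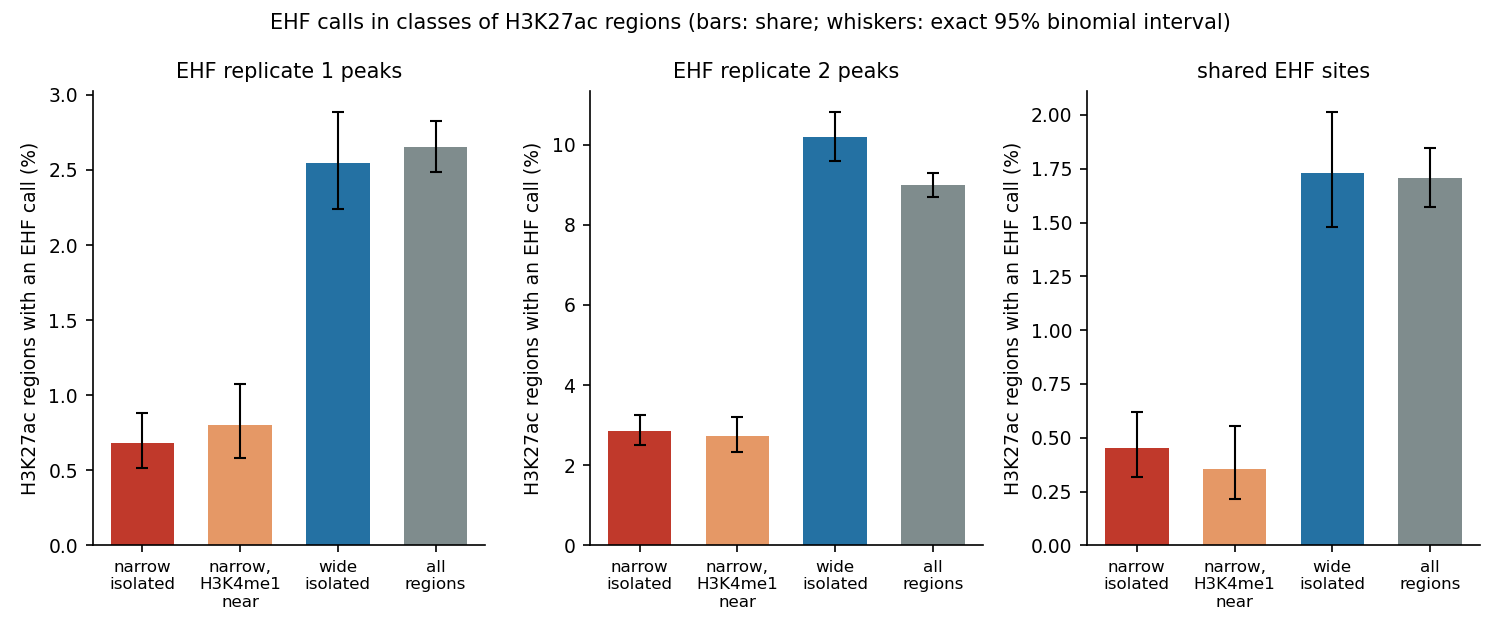
Share of H3K27ac regions (%, y axis) that overlap a peak of EHF replicate 1, a peak of EHF replicate 2 or a shared EHF site, for the narrow isolated, narrow H3K4me1-near, wide isolated and all regions. Bars are shares and whiskers exact 95% binomial intervals; the narrow classes stand at 0.682% and 0.801% in replicate 1 and at 2.86% and 2.74% in replicate 2, below the wide isolated regions at 2.55% and 10.2%.

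A wide region has more room for a peak and also had more H3K27ac per kb, so the window was made equal and the range of scores per kb was limited, first in turn and then together. With the same window for every region, EHF peak centres within 250 bp of the region's centre, the shares were 0.304% of narrow isolated and 1.15% of wide isolated regions in replicate 1 (Fisher's exact test, adjusted p = 8.8e-11). In replicate 2 they were 1.64% and 5.09% (Fisher's exact test, adjusted p = 9.18e-37). With both classes limited to the range between the quartiles of the narrow isolated regions' scores per kb, the replicate 1 shares were 0.537% and 0.682% and the difference no longer passed (-0.15 points, Fisher's exact test, adjusted p = 0.681). The shared sites gave 0.28% and 0.401% (difference -0.12 points, Fisher's exact test, adjusted p = 0.605). In replicate 2 the shares were 1.94% and 3.65% and the difference of -1.72 points still passed (Fisher's exact test, adjusted p = 0.000357). With the window and the score limit together, an alternative added after the data were seen, the replicate 2 shares were 1.05% and 2.21% (difference -1.16 points, Fisher's exact test, adjusted p = 0.00264). In replicate 1 they were 0.257% and 0.442% (difference -0.18 points) and for shared sites 0.14% and 0.361% (difference -0.22 points), which did not pass (adjusted p = 0.401 and p = 0.381 by Fisher's exact test). Score per kb was not fully matched by this limit, since 3889 narrow isolated regions had 15 to 20 and 1832 had 20 to 25 per kb, compared with 944 and 1644 wide isolated regions.

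Among the narrow isolated regions themselves, EHF content rose with the H3K27ac score. Of the 4609 regions with a score at or above the median of 12, 1.08% met a replicate 1 peak, 4.23% a replicate 2 peak and 0.738% a shared site. Of the 3603 with a lower score, the shares were 0.167%, 1.11% and 0.0833%. The differences of 0.92, 3.12 and 0.65 points passed Fisher's exact test (adjusted p = 2.26e-07, p = 4.15e-18 and p = 5.47e-06). In replicate 2 the share climbed by steps, with 0.91% of the 2308 regions of score 6 to 9, 1.63% of the 2331 of score 10 to 13 and 2.65% of the 1965 of score 14 to 19. It was 5.48% of the 1186 regions of score 20 to 29 and 13.98% (10.8% to 17.7%) of the 422 of score 30 or more. In replicate 1 the steps were 0.13%, 0.472%, 1.12%, 0.675% and 2.84%, which do not rise throughout.

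The same climb was seen per kb, in bands that start at 15. Of the 3889 narrow isolated regions with 15 to 20 score units per kb, 1.16% met a replicate 2 peak, against 1.80% of the wide isolated regions in that band. The shares were 2.67% and 4.14% at 20 to 25 per kb, 4.45% and 7.12% at 25 to 35, and 8.80% and 13.2% at 35 to 50. At 50 or more per kb they were 15.7% (9.55% to 23.6%, 115 regions) and 23.1% (21.01% to 25.3%, 1546 regions). By overlap in replicate 2 the narrow isolated regions had the lower share in every band. The binomial intervals of both classes overlapped in the lowest, the second and the highest band. In replicate 1 the shares were 0.257% and 0.106% at 15 to 20 per kb, where the narrow isolated regions had the higher one on 10 peaks and 1 peak. They were 0.546% and 0.973%, 1.30% and 1.64%, 2.06% and 3.53%, and 3.48% and 5.95% in the bands above, again narrow isolated and then wide isolated, and the intervals overlapped in all 5 bands. Shared sites gave 0.18% and 0.106% in the lowest band and lower shares in narrow isolated regions in the other 4. All these shares count overlaps, and wide isolated regions were longer in each band (median 1460 against 501 bp at 15 to 20 per kb). By peak centres within 250 bp of the region's centre, the replicate 2 shares were 0.797% and 0.847% at 15 to 20 per kb. They were 1.31% and 2.68%, 2.54% and 4.05%, 5.06% and 6.58%, and 6.96% and 9.96% in the bands above, and were not tested by band.

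**Figure D2:**
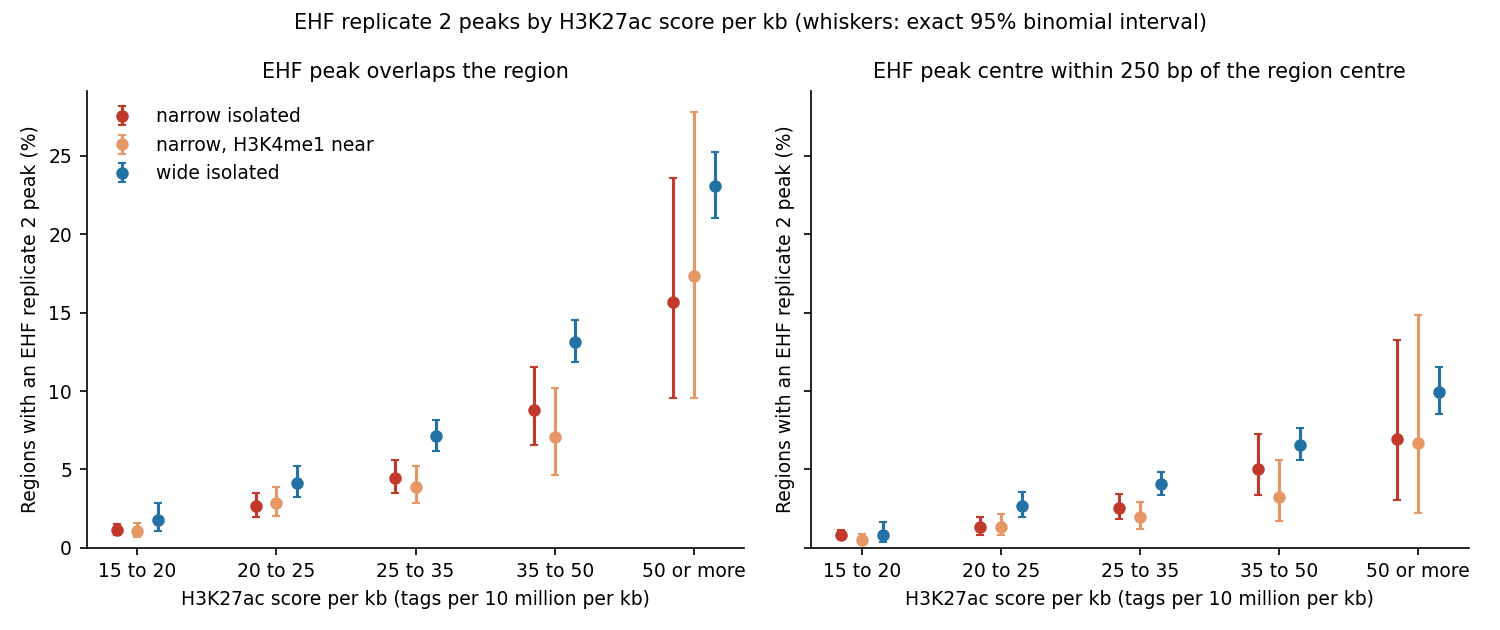
Share of regions (%, y axis) with an EHF replicate 2 peak by H3K27ac score per kb (x axis, 5 bands), counted by overlap on the left and by peak centres within 250 bp of the region centre on the right, for narrow isolated, narrow H3K4me1-near and wide isolated regions. Points are shares and whiskers exact 95% binomial intervals; by overlap the narrow isolated regions climb by band to 15.7% and the wide isolated regions to 23.1%.

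Width went with EHF content too, as the score did. Of the 4235 narrow isolated regions of 501 bp, 0.567% met a replicate 1 peak and 1.46% a replicate 2 peak. The shares were 0.485% and 2.61% of the 1648 wider regions of under 700 bp, and 1.03% and 5.58% of the 2329 regions of 700 bp or more. The median score of these width classes was 9, 14 and 21. The regions with a replicate 2 peak had a median width of 762 bp, a median score of 20 and 27.9 per kb, against 501 bp, 12 and 19.96 per kb in those without one. The separate parts of width and score in the EHF share were not tested.

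EHF peaks in narrow isolated and in wide isolated regions recurred in the other replicate at close shares. Of the 56 replicate 1 peaks in narrow isolated regions, 66.1% (52.2% to 78.2%) overlapped a replicate 2 peak. The share was 44.2% (29.1% to 60.1%) of the 43 peaks in narrow H3K4me1-near regions, 67.3% (61.1% to 73.2%) of the 245 in wide isolated regions and 28.4% (24.8% to 32.2%) of the 602 outside H3K27ac. Of the 235 replicate 2 peaks, 14.9% (10.6% to 20.1%) overlapped a replicate 1 peak, compared with 15.97% of the 1027 in wide isolated regions and 9.38% of the 1887 outside H3K27ac. Median EHF scores were close as well: replicate 1 peaks scored 9 inside narrow isolated and 10 inside wide isolated regions, and replicate 2 peaks scored 12 inside both. These shares and medians were compared by their intervals only and not tested. Seen from the EHF side, narrow isolated regions held 3.64% of all replicate 1 peaks, 4.51% of all replicate 2 peaks and 4.82% of the 768 shared sites. In the same order, narrow H3K4me1-near regions held 2.80%, 2.84% and 2.47%, and wide isolated regions 15.9%, 19.7% and 21.5%. Outside any H3K27ac region lay 39.2%, 36.2% and 22.3%.

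The position of EHF peaks within and around the regions differed by class. Around narrow isolated regions, replicate 2 peak centres numbered 32.9 per Mb within 250 bp of the region's centre and 36.8 per Mb at 250 to 500 bp, where many of these regions had already ended. They numbered 5.11 per Mb at 500 to 1000 bp, 2.01 at 1000 to 2000 bp and 4.18 at 5000 to 10000 bp. In replicate 1 the densities were 6.09, 9.99, 1.46, 0.852 and 1.23 per Mb at the same distances. Around wide isolated regions replicate 2 centres instead numbered 102.4 per Mb within 250 bp and 49.7 at 250 to 500 bp. Of the replicate 2 centres within 500 bp, 47.2% (41.3% to 53.2%, 286 peaks) lay within 250 bp in the narrow isolated regions, 35.9% (29.2% to 43.1%, 195 peaks) in the narrow H3K4me1-near regions and 67.3% (63.8% to 70.7%, 725 peaks) in the wide isolated ones. In replicate 1 these shares were 37.9% (26.2% to 50.7%), 28.1% (16.97% to 41.5%) and 65.5% (57.8% to 72.6%). In both narrow classes the inner 250 bp thus held no more EHF peaks than the next 250 bp, and in the wide isolated regions they held more. The order was the same in both replicates and was not tested.

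**Figure D3:**
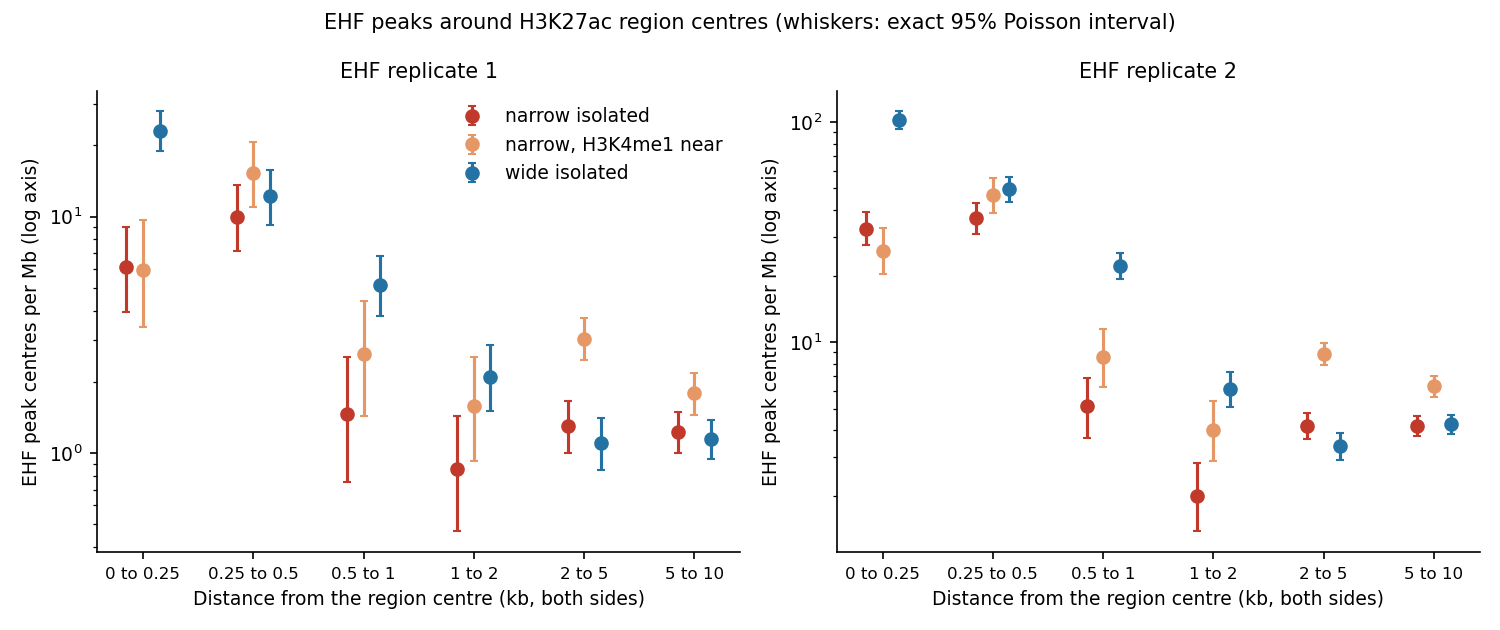
EHF peak centres per Mb (y axis, log scale) by distance from the region centre (x axis, kb, both sides together) for narrow isolated, narrow H3K4me1-near and wide isolated regions in EHF replicates 1 and 2. Points are densities and whiskers exact 95% Poisson intervals; around narrow isolated regions replicate 2 shows 32.9 and 36.8 per Mb in the first 2 bins, and around wide isolated regions 102.4 and 49.7.

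Part of the overlap by 1 bp came from such edge positions. The centre of the peak lay inside the region for 39 of 56 replicate 1 peaks (69.6%) and 192 of 235 replicate 2 peaks (81.7%) in narrow isolated regions, compared with 99.2% and 98.2% in wide isolated regions. By peak centre the narrow isolated regions held 7.58 replicate 1 peaks and 37.3 replicate 2 peaks per Mb, against 11.7 and 48.7 per Mb in wide isolated regions. A further 99 narrow isolated regions, or 1.21%, had a replicate 2 peak within 1000 bp of an edge and none inside, and 337, or 4.10%, had one within 5000 bp. In replicate 1 these were 26 regions, or 0.317%, and 101, or 1.23%. Such counts were not made for other classes, so they cannot tell whether EHF peaks beside a region were particular to this class.

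The regions named for a shared EHF site came from a class with low H3K27ac scores. Their scores therefore do not describe shared EHF sites in general. Over the 37 regions the H3K27ac score ran from 8 to 45 with a median of 18. The median was 12 in the narrow isolated regions without a shared site. The EHF score ran from 7 to 17 with a median of 9 in replicate 1, and from 8 to 32 with a median of 14 in replicate 2. The site that ranked first by the mean rank of its EHF scores lay on chromosome 15 in the region at 64679342 to 64679842, with EHF scores of 17 and 31. That region was 501 bp wide with an H3K27ac score of 19, the next H3K27ac region was 5686 bp away and the nearest H3K4me1 region 78584 bp away. The second, on chromosome 22 at 42418406 to 42418906, had EHF scores of 13 and 25, an H3K27ac score of 16 and a site 22 bp from the region's centre. The third, on chromosome 14 at 61905888 to 61906699, had EHF scores of 15 and 19 and an H3K27ac score of 20. The fourth, on chromosome 1 at 146987521 to 146988151, had EHF scores of 16 and 18, an H3K27ac score of 18 and its site 359 bp from the region's centre. Among the other 6 of the 10 best-ranked, EHF scores were 10 to 13 in replicate 1 and 18 to 30 in replicate 2. The one with the most H3K27ac was on chromosome 19 at 33667162 to 33667946, with a score of 38 and EHF scores of 10 and 27. The 37 regions were spread over 19 chromosomes, with 5 on chromosome 19 and 3 each on chromosomes 1, 3, 6 and 11.

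The highest H3K27ac scores among narrow isolated regions were concentrated on chromosome 17. Of the 10 highest, 7 lay there. None of the 10 met an EHF peak of replicate 1. Such a peak was met by 2.84% of the 422 narrow isolated regions of score 30 or more and by 2.65% of all H3K27ac regions, so 10 regions cannot show a lower share. The first of the 10, at 37792997 to 37793984, had a score of 1327, or 1343 per kb, and an EHF replicate 2 peak with a score of 134. The second, at 38136954 to 38137832, had a score of 682, and the third, at 37773937 to 37774734, had a score of 372. The second held a replicate 2 peak with a score of 176, and the third held none. These and another 2 narrow isolated regions lay between 37500001 and 39000000, a stretch delimited after earlier results had shown very high scores there in several lists. The 5 regions in it scored 36 to 1327 with a median of 466 per kb, against a median of 20.7 per kb in the other 289 narrow isolated regions of chromosome 17 and 19.96 in the 7918 on other chromosomes. Away from chromosome 17 the highest score was 99, on chromosome 10 at 69609179 to 69610059, followed by 74 on chromosome 22 at 30987378 to 30988333 and 69 on chromosome 1 at 145008922 to 145009564. None of these 3 met an EHF peak, and only 3.11% of all narrow isolated regions met one. Leaving out chromosome 17 gave EHF shares of 0.682% in replicate 1 and 2.75% in replicate 2.

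Narrow isolated regions lay farther from other H3K27ac, at the median, than all regions did, but many had some nearby. The next H3K27ac region lay a median of 12305 bp away, edge to edge (quartiles 3100 and 38008 bp), close to the 13000 bp of wide isolated regions and farther than the 5449 bp of narrow H3K4me1-near regions and the 8704 bp of all H3K27ac regions. The smallest distance was 500 bp. For 1580 narrow isolated regions, or 19.2%, the next region lay within 2000 bp, for 3758, or 45.8%, within 10000 bp, and for 731, or 8.90%, beyond 100000 bp. Over all H3K27ac regions, 23.0% had their next region within 2000 bp, 52.9% within 10000 bp and 6.05% beyond 100000 bp. The nearest H3K4me1 region was a median of 27535 bp away (quartiles 8279 and 81443 bp), and beyond 100000 bp for 1769, or 21.5%. The single narrow isolated region of chromosome Y had no neighbour on its chromosome and is left out of these distances.

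Next to a narrow isolated region, another one was common. The next H3K27ac region was itself narrow and isolated for 2529, or 30.8%, wide and isolated for 32.4%, wide with H3K4me1 near for 26.2% and narrow with H3K4me1 near for 10.6%. Over all H3K27ac regions these classes made up 23.7%, 27.5%, 33.3% and 15.5%. Where the next region lay within 2000 bp, it was narrow and isolated in 41.3% of cases and its median width was 1236 bp (quartiles 627 and 2605 bp). Close neighbours share the same H3K4me1 surroundings, which the rule used, so these shares are a description.

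EHF replicate 2 peaks were found less often where the next H3K27ac region was near, and the call depended on how regions were defined. Of the 4106 narrow isolated regions with a neighbour at the median distance or nearer, 2.34% met a replicate 2 peak, against 3.39% of the 4105 farther ones (difference -1.05 points, -1.78 to -0.33, Fisher's exact test, adjusted p = 0.00757). For shared sites the shares were 0.292% and 0.609% (difference -0.32 points, Fisher's exact test, adjusted p = 0.0497). That call was lost with widths under 700 or 1500 bp (adjusted p = 0.603 and p = 0.32), with H3K4me1 required beyond 5000 bp (p = 0.305) and with merged regions (p = 0.322), all by Fisher's exact test. Without EHF replicate 2 the shared-site test becomes the replicate 1 test given next. For replicate 1 the shares were 0.536% and 0.828%, which did not pass (difference -0.29 points, Fisher's exact test, adjusted p = 0.147). The replicate 2 difference was lost when H3K27ac regions were first merged across gaps of up to 1000 bp (-0.38 points, Fisher's exact test, adjusted p = 0.456), and also with widths under 700 bp or with H3K4me1 required beyond 5000 bp (adjusted p = 0.067 and p = 0.283). By distance, the replicate 2 share was 1.08% of the 1580 regions with a neighbour within 2000 bp, 2.54% of those beyond it and up to 5000 bp, and 3.89% from there to 20000 bp. It was 3.40% from 20000 to 100000 bp and 2.05% of the 731 beyond 100000 bp. Width moved with distance as well, since 57.7% of the regions with a neighbour within 2000 bp were 501 bp wide, against 50.1% of those farther away, and its part in the difference was not tested.

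**Figure D4:**
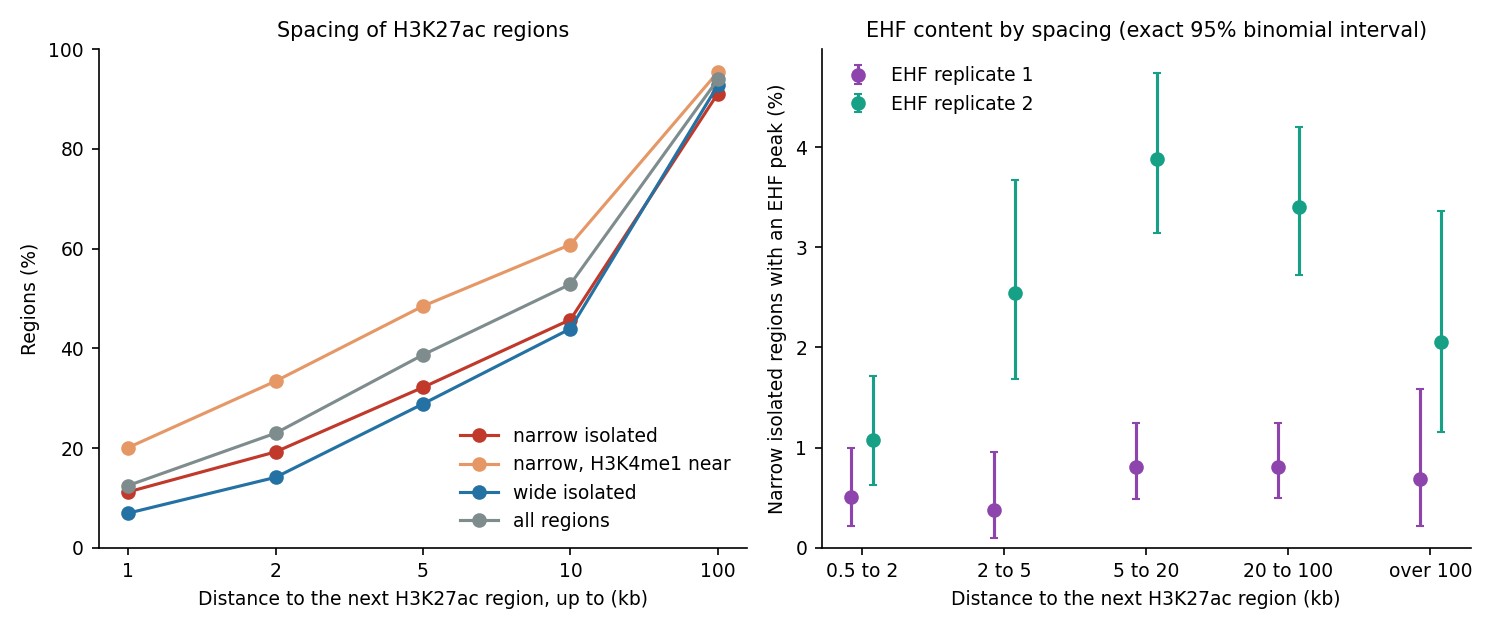
Left: share of regions (%, y axis) whose next H3K27ac region lies within a given distance (x axis, kb, drawn as categories) for narrow isolated, narrow H3K4me1-near, wide isolated and all regions. Right: share of narrow isolated regions (%) with an EHF peak by distance to the next H3K27ac region, with exact 95% binomial intervals; in replicate 2 it is 1.08% up to 2 kb and 3.89% at 5 to 20 kb.

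Distance to H3K4me1, which the rule used, showed a like shape for EHF. The replicate 2 share was 1.71% of the 1230 narrow isolated regions with H3K4me1 within 5000 bp, 2.46% from there to 10000 bp and 3.37% from 10000 to 30000 bp. It was 4.19% from 30000 to 100000 bp and 1.75% of the 1769 beyond 100000 bp. The replicate 1 shares at the same distances were 0.325%, 0.526%, 0.685%, 1.10% and 0.509%. In both replicates the share was highest from 30000 to 100000 bp and lower on either side. None of the 1230 nearest regions (0 of 1230) held a shared site. The exact 95% interval of that share ends at 0.299%, and 3 regions would make 0.244%. These bands were chosen after the data were seen and carry no test.

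The 5 regions farthest from other H3K27ac lay in long stretches without the mark. The farthest, on chromosome 13 at 86625900 to 86626400, was 3539935 bp from the next H3K27ac region and 9287604 bp from the nearest H3K4me1 region, with a score of 9. The others were on chromosome 9 at 66458083 to 66458710 (3327655 bp, score 15), on chromosome 2 at 79486896 to 79487702 (2151344 bp, score 15) and at 51179692 to 51180322 (1950635 bp, score 20), and on chromosome 13 at 58463741 to 58464241 (1641526 bp, score 13). None of the 5 held an EHF peak, but only 3.11% of all narrow isolated regions met one, so 5 regions cannot show a lower share. In all, 15 of 8211 narrow isolated regions were more than 1000000 bp from the next H3K27ac region. This held for 10 of 9535 wide isolated regions and for 26 of all 34637 H3K27ac regions. These counts are small and were not tested.

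Narrow isolated regions were unevenly spread over the chromosomes. Chromosome Y held a single H3K27ac region, a narrow isolated one with a score of 39. On the other 23 chromosomes their share of H3K27ac regions ran from 17.3% on chromosome 22 (exact 95% interval 14.5% to 20.5%, 112 of 646) to 33.0% on chromosome X (30.1% to 35.99%, 336 of 1018). Chromosomes 21, 19, 13 and 4 followed X with 31.7%, 31.2%, 30.9% and 29.6%, and chromosomes 18, 5 and 16 stood at the low end with 18.7%, 19.1% and 19.6%. The intervals of the 5 highest chromosomes overlapped one another, and none overlapped that of chromosome 5, 18 or 22.

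The share of narrow isolated regions is the product of the share that were narrow and the share of those that were isolated, and the isolated share varied more. The share of H3K27ac regions that were narrow ran only from 35.6% on chromosome 17 to 41.5% on chromosome 5. The share of narrow regions that were isolated ran from 46.1% on chromosome 5 to 85.3% on chromosome X. The number of H3K4me1 regions per H3K27ac region ran from 0.289 on chromosome 13 to 1.31 on chromosome 5, and was 0.374 on chromosome X and 0.501 on chromosome 19. Over the 23 chromosomes, the share of narrow isolated regions had a Spearman rho of 0.94 with the isolated share of narrow regions, of 0.37 with the narrow share and of -0.87 with H3K4me1 regions per H3K27ac region, which share the same lists and are a description. The median score per kb of narrow isolated regions ran from 17.96 on chromosomes 13, 21 and X to 23.95 on chromosome 16. The median distance to the next H3K27ac region ran from 9249 bp on chromosome 9 to 15940.5 bp on chromosome 17.

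EHF content was spread unevenly over the chromosomes as well. A replicate 2 peak was met by 7.02% of the narrow isolated regions of chromosome 19 (25 regions), 5.78% of those of chromosome 17 and 5.11% of those of chromosome 7, against 2.86% over all chromosomes. At the other end stood chromosomes 13, 4 and 21 with 0.463%, 0.749% and 0.752% (1, 4 and 1 regions). The wide isolated regions showed the same contrast, against 10.2% over all chromosomes. They had 11.5%, 16.7% and 12% on chromosomes 19, 17 and 7, and 2.49%, 6.08% and 5.41% on chromosomes 13, 4 and 21. Chromosome 19 also held 8 of the 56 regions with a replicate 1 peak, or 2.25% of its narrow isolated regions. It and chromosome X were the chromosomes where the replicate 1 share was above that of wide isolated regions, at 2.25% and 1.67% on chromosome 19 and at 1.19% and 0.674% on chromosome X. These single-chromosome shares rest on few peaks and were not tested.

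**Figure D5:**
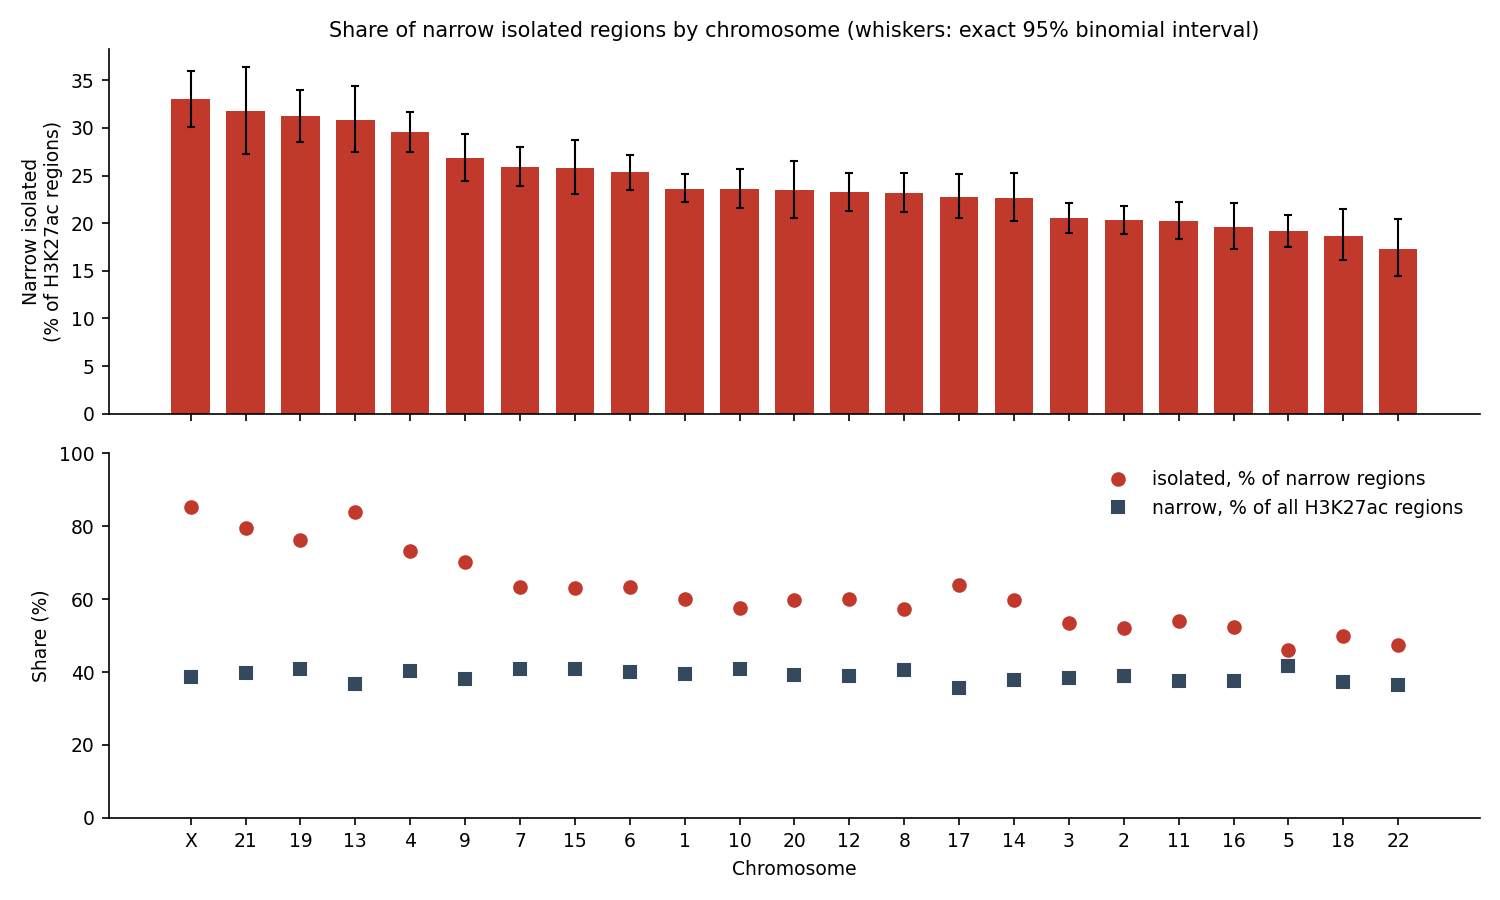
Top: narrow isolated regions as a share of H3K27ac regions (%, y axis) on the 23 chromosomes with more than 1 region, from X at 33.0% to 22 at 17.3%, with exact 95% binomial intervals. Bottom: the share of narrow regions that were isolated (circles, 46.1% to 85.3%) falls from left to right while the share of regions that were narrow (squares, 35.6% to 41.5%) stays within a small range.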

How the data were processed

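The deposited interval lists of 4 libraries (EHF replicates 1 and 2, H3K4me1, H3K27ac) were used, with no use of reads or inputs. Bowtie 1.0.0, HOMER 1.2 and hg19 are named in the submitters' processing notes. Calling was done library by library, per the file headers, with HOMER findPeaks at a false discovery rate of 0.01 and 4-fold over input. Every header also lists a 4-fold requirement over the surrounding 10000 bp. The deposited score is, per the file headers, the authors' normalized tag count, whole numbers scaled to 10000000 tags and not divided by input. A narrow or weak region is near the limit of this calling, and an absent call means only that the rules were not met.

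Overlap meant at least 1 bp. Classes of regions were compared by two-sided Fisher's exact tests on counts of regions, adjusted by Benjamini-Hochberg over 12 tests, using scipy 1.17.1, pandas 2.3.3 and numpy 2.4.6 under Python 3.11.15. Overlap counts, distances and this test were tested on simulated data. The p-values describe positions within these libraries, not the spread between cultures, and neighbouring regions are not independent. The rule for named regions took the 10 highest H3K27ac scores, up to 10 regions with a shared EHF site by mean rank of the EHF scores, and the 5 farthest from the next H3K27ac region. The members, the comparison classes and the rules were chosen with earlier results of these data known. Gene context and sequence were not analysed here.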

Additional observations from a re-analysis of the deposited data

How the results depend on the processing

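Of 172 alternative values, 123 were counted as the same. These kept their direction and side of the threshold, stayed within the interval of the main value, or were counts of narrow isolated regions, which have neither. The count of narrow isolated regions, 8212 by the rule, was 5883 and 11321 with widths under 700 and 1500 bp. It was 8905 and 6982 with H3K4me1 within 1000 and 5000 bp, 7291 with merged regions and 7918 without chromosome 17. The counts of alternatives here include those without EHF replicate 1 or without EHF replicate 2. Their values repeat the main results of the remaining replicate and add no separate check. EHF content rose with the H3K27ac score in all 20 alternatives run for it. The lower EHF share than in wide isolated regions kept its direction in all 38 alternatives, and 4 of them, those limited to the range between the quartiles of scores per kb, lost the call (-0.15 and -0.12 points in replicate 1 and shared sites, and -0.18 and -0.22 points with the 250 bp window added, an alternative chosen after seeing the data). The difference from narrow H3K4me1-near regions passed no main test and its sign depended on the setting. In replicate 1 it was -0.33 points with widths under 1500 bp (Fisher's exact test, adjusted p = 0.0499), 0.0323 with H3K4me1 within 5000 bp and 0.00631 by the window. In replicate 2 it was -0.18 with widths under 1500 bp, -0.0167 with H3K4me1 within 1000 bp, -0.0486 with merged regions, -0.36 with EHF peaks extended by 200 bp and -0.17 between the quartiles of scores. For shared sites it was -0.0881 with widths under 1500 bp and -0.0905 with extended peaks. The difference by near neighbours was lost in replicate 2 with widths under 700 bp (-0.71 points), H3K4me1 within 5000 bp (-0.52) and merged regions (-0.38), and for shared sites with widths under 700 bp (-0.10) and 1500 bp (-0.19), H3K4me1 within 5000 bp (-0.20) and merged regions (-0.22).

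The EHF shares moved with the way a call was counted. In replicate 1 the share was 0.91% with widths under 1500 bp, 0.475% by peak centre, 0.304% by the window, 0.28% with EHF scores of 10 or more and 0.257% by the window between the quartiles of scores. In replicate 2 it was 1.78% and 4.28% with widths under 700 and 1500 bp, 2.34% by centre, 3.59% with extended peaks, 1.64% by the window, 2.45% with scores of 10 or more, 1.94% between the quartiles and 1.05% with both. For shared sites it was 0.645% with widths under 1500 bp, 0.207% by the window and with scores of 10 or more, 0.28% between the quartiles and 0.14% with both. The median score per kb was 21.96 with widths under 1500 bp. The median distance to the next region was 11473 and 13319.5 bp with widths under 700 and 1500 bp, 10949 and 15613 bp with H3K4me1 within 1000 and 5000 bp, and 15767.5 bp with merged regions. The causes were not tested.

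With either EHF replicate left out no shared sites exist, so these alternatives restate the results of the remaining replicate. The EHF share was then 0.682% to 2.86%. The difference was -0.12 to 0.12 points from narrow H3K4me1-near regions and -7.32 to -1.87 points from wide isolated regions. By score it was 0.92 to 3.12 points and by neighbours -1.05 to -0.29 points. No paired analysis was possible because only EHF has numbered libraries, so no group shares their numbers. Peaks held 0.155% of the tags of EHF replicate 1 and 0.74% of those of replicate 2, which limits what weak sites either could show.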
